A study of Rattus norvegicus with 30 samples.

Results

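The 10 genes described here encode proteins of the sperm acrosome, of the sperm surface or, for Tex101, of the germ cell surface. These genes were taken as a group for roles in the acrosome or in sperm-egg binding. They are Acr, Acrbp, Acrv1, Spaca1, Spaca3, Zpbp, Spam1, Izumo1, Adam2 and Tex101, chosen by gene symbol and found through their Entrez Gene identifiers among the 17322 genes of the deposited table. RNA was measured by mRNA sequencing of testes from Wistar Han rats at 6 ages, the youngest 8.5 days postpartum (dpp) and the oldest 53.5 dpp, with 14.5 and 24.5 dpp, then 30.5 and 36.5 dpp, in between. Explants were measured after 6 (D6), 16 (D16), 22 (D22) or 28 (D28) days of culture. The explants were fragments, 6 from each testis of 8.5 dpp rats, kept on agarose gels at 34 °C in αMEM with 10% knock-out serum replacement, retinol and vitamin E, changed every few days. Their necrotic centre was taken out before the tissue was frozen for RNA, so the cultured libraries are of the outer part of the explants. Each group had 3 libraries, from 3 different testes in vivo and from pools of 12 explants in culture. In the 14.5 dpp group only 2 libraries were used, because the library marked as an outlier is listed at 0 for every gene. The study had excluded a testis of this age because its transcriptome was unlike that of the other 2 replicates. By nominal age D6 matches 14.5 dpp, D16 matches 24.5 dpp, D22 matches 30.5 dpp and D28 matches 36.5 dpp.

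The acrosome is a vesicle derived from the Golgi apparatus that spreads over the nucleus of the developing spermatid and holds enzymes and binding proteins released when sperm meet the egg coat. Many of its genes are transcribed first in late meiotic spermatocytes or in round spermatids, and their proteins are stored until fertilization. The first wave of spermatogenesis in the prepubertal testis brings these cell types in turn.

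Promoter windows from RefSeq, on the GRCr8 build, cover 250 bases before and 50 bases after the annotated start and were found for 8 of the 10 genes. Spaca3 and Adam2 had no entry. The windows shown are those of Acrbp and Acr, which bind each other as proteins, of Izumo1 and Spam1, which reached 1 FPKM later, and of Tex101, whose time course differed most from the rest. Capitals mark matches, on either strand, to the cyclic AMP response element (CRE, TGACGTCA), its shorter form TGACG contained in it, a MYB motif (TAACNG), an RFX motif (GTTGCC) or a TATA box (TATAAA).
Acrbp (chr4:159537149-159537448, plus strand): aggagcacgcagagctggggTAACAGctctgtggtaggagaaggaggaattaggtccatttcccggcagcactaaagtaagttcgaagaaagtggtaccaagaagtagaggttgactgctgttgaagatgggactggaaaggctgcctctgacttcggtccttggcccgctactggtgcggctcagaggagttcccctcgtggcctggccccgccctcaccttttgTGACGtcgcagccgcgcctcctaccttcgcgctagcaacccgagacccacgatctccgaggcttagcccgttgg
Acr (chr7:122517684-122517983, plus strand): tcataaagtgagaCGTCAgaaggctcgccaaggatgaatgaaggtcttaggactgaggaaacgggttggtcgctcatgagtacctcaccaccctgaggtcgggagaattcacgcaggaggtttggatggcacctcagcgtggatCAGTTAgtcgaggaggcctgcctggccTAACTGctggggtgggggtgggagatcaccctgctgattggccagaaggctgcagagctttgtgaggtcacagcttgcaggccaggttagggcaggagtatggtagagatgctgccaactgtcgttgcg
Izumo1 (chr1:105227353-105227652, plus strand): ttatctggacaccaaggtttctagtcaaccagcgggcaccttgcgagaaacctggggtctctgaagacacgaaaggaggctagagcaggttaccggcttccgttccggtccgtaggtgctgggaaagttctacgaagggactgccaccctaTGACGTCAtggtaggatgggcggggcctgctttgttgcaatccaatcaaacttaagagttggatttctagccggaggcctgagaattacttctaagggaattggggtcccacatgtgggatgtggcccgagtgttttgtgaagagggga
Spam1 (chr4:54268037-54268336, plus strand): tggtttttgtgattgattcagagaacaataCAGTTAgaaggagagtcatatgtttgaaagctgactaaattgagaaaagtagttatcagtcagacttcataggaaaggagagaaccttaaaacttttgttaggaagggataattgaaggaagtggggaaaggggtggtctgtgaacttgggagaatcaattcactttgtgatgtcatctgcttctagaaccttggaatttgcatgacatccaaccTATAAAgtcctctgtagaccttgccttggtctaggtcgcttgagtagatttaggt
Tex101 (chr1:89387291-89387590, minus strand): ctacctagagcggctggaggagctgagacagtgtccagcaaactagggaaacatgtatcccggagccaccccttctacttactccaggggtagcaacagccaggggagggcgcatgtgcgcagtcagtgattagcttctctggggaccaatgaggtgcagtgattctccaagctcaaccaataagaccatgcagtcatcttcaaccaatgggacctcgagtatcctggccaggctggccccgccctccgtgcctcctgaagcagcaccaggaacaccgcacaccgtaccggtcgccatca
The full CRE was in 1 of the 8 windows, that of Izumo1 at position -99, and in 1.91% of 27457 rat promoter windows. The shorter form TGACG was in 4 of the 8 windows, those of Acr, Acrbp, Spaca1 and Izumo1, against 22.0% of all windows. The MYB motif was in the windows of Acr, Acrbp and Spam1 and in 23.3% of all windows. The RFX motif was in the Spaca1 window and in 12.2% of all windows, and TATAAA was in the Spam1 window, at position -5, and in 14.3% of all windows. None of these letters were in the windows of Acrv1, Zpbp or Tex101. A match is a description of the sequence, and binding of a factor was not measured.

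**Figure D1:**
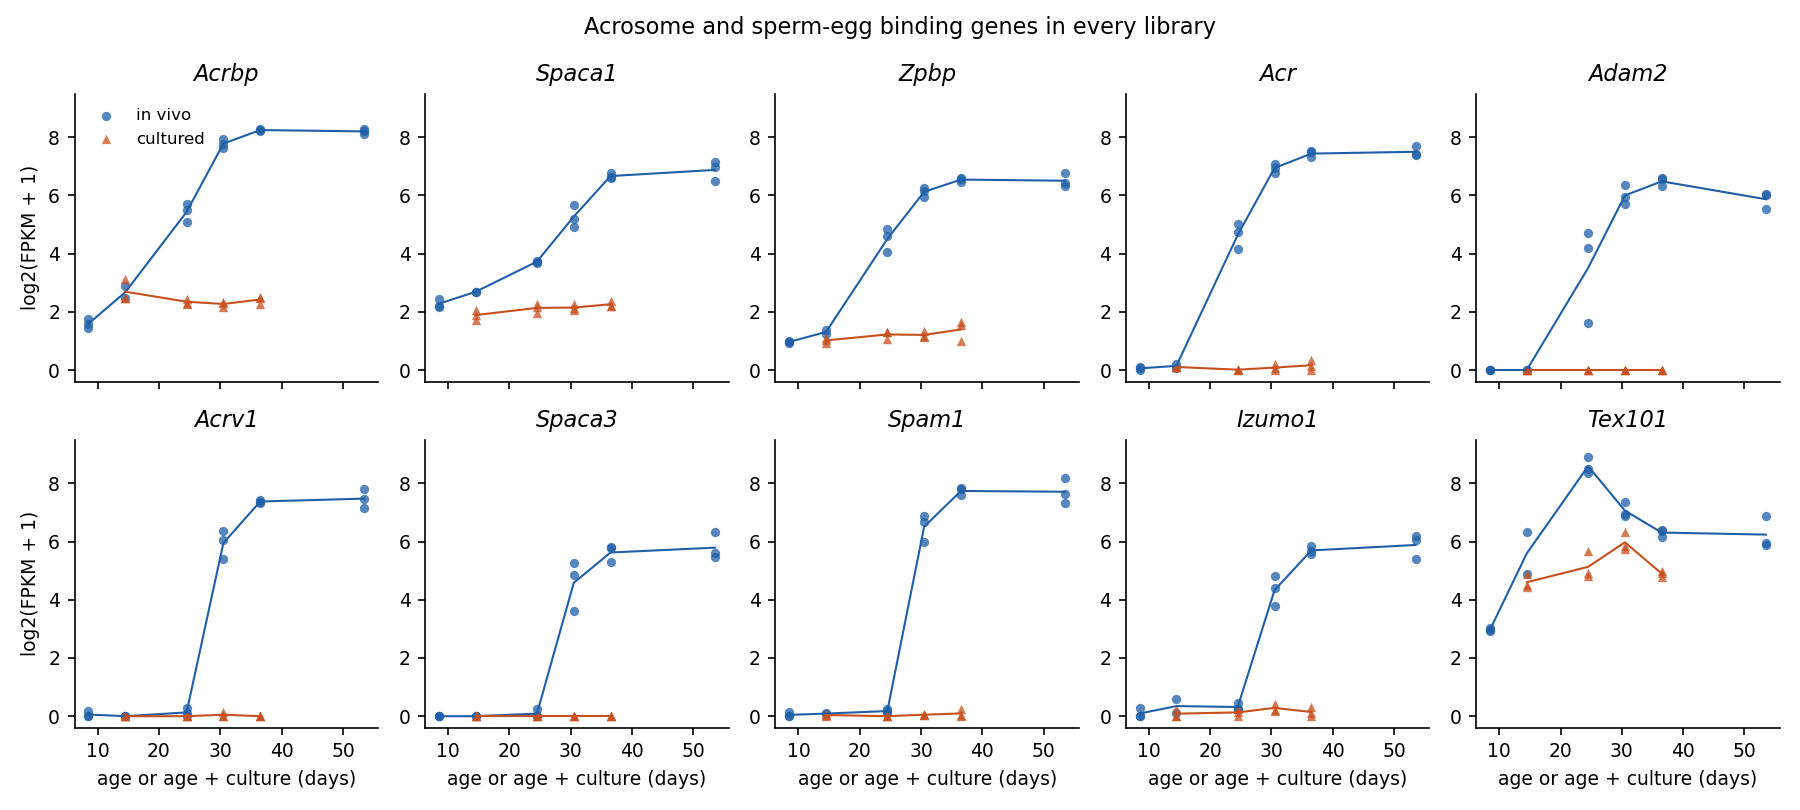
Each point is 1 library, plotted as log2(FPKM + 1) against age in days for testes in vivo (circles) and against age at explantation plus days of culture for cultured tissues (triangles). Lines join group means. In vivo, Acr and Adam2 were first at or above 1 FPKM in every library at 24.5 dpp, Acrv1, Spaca3, Spam1 and Izumo1 at 30.5 dpp, and Tex101 was highest at 24.5 dpp.

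In vivo the 10 genes appeared in steps. The number at or above 1 FPKM (fragments normalized to transcript length and to mapped reads) in every library was 3 at 8.5 dpp, 4 at 14.5 dpp, 6 at 24.5 dpp and 10 at each age from 30.5 dpp on. Acrbp, Spaca1 and Tex101 met this level at 8.5 dpp, Zpbp at 14.5 dpp, Acr and Adam2 at 24.5 dpp, and Acrv1, Spaca3, Spam1 and Izumo1 at 30.5 dpp. With 5 FPKM in place of 1, the age for Acrbp and Zpbp became 24.5 dpp, that for Spaca1 14.5 dpp and that for Adam2 30.5 dpp, and with 0.5 FPKM the age for Zpbp became 8.5 dpp. The summed level of the 10 genes was 13.9 ± 0.911 FPKM at 8.5 dpp (SD, n = 3), 66.3 ± 37.1 at 14.5 dpp (n = 2), 507 ± 57.7 at 24.5 dpp, 849 ± 132 at 30.5 dpp, 1313 ± 35.6 at 36.5 dpp and 1330.0 ± 213 at 53.5 dpp. In cultured tissues 3 of the 10 genes were at or above 1 FPKM in every library at D6, and 4 at each later time. Their summed level was 33.1 ± 3.77 FPKM at D6, 44.3 ± 12.9 at D16, then 71.8 ± 15.1 at D22 and 39.0 ± 2.93 by D28, most of it Tex101. These are levels of bulk tissue, in which fewer cells of a type and less RNA per cell cannot be told apart.

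Acr (Entrez Gene 24163) encodes acrosin, the serine protease of the acrosomal matrix. Its libraries were at 0.0498, 0.0698 and 0 FPKM at 8.5 dpp, 0.0469 and 0.164 at 14.5 dpp, 25.9, 31.5 and 16.7 at 24.5 dpp, 109, 135 and 123 at 30.5 dpp, 177, 182 and 158 at 36.5 dpp, and 168, 169 and 205 at 53.5 dpp. The cultured libraries were at 0.0778, 0.0754 and 0.0715 FPKM at D6, at 0.0240 in 1 library and 0 in the others at D16, at 0.140, 0.0435 and 0 at D22, and at 0.273, 0 and 0.105 at D28. No cultured library came near the lowest testis from 24.5 dpp on, at 16.7 FPKM. Acr rose by 4.50 ± 0.27 (SE) on the log2(FPKM + 1) scale from 14.5 to 24.5 dpp, a step at which it was tested only because of its 24.5 dpp median and so had to differ, and by 2.30 ± 0.23 from 24.5 to 30.5 dpp (limma, adjusted p = 0.000427). From 30.5 to 36.5 dpp its groups did not overlap and its mean was 1.41 times higher, which is below the ratio of 2 needed for a call (adjusted p = 0.0276).

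Acrbp (Entrez Gene 500316) encodes the protein that binds proacrosin and packs it in the acrosome. In vivo its libraries were at 1.99, 2.36 and 1.73 FPKM at 8.5 dpp, 4.55 and 6.33 at 14.5 dpp, 43.7, 51.4 and 33.1 at 24.5 dpp, 197, 243 and 217 at 30.5 dpp, 308, 298 and 301 at 36.5 dpp, and 278, 292 and 308 at 53.5 dpp. In culture they were at 4.54, 4.49 and 7.83 FPKM at D6, 3.99, 4.44 and 3.84 at D16, 3.94, 4.10 and 3.45 at D22, and 4.62, 3.78 and 4.74 at D28. The cultured values lay between the 8.5 dpp libraries and the 24.5 dpp libraries and overlapped neither, and they overlapped the 14.5 dpp libraries at D6 and D28. Acrbp was 2.69 times higher at 14.5 than at 8.5 dpp (log2 difference 1.08 ± 0.16, adjusted p = 0.00737), 7.86 times higher at 24.5 than at 14.5 dpp (2.76 ± 0.23, adjusted p = 0.000669) and 5.13 times higher at 30.5 than at 24.5 dpp (2.35 ± 0.18, adjusted p = 0.000158). At 36.5 dpp it was 69.0 times higher than at D28, with 302 ± 5.02 against 4.38 ± 0.527 FPKM.

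Spaca1 (Entrez Gene 500432) encodes a membrane protein of the acrosome needed to shape it. Its libraries were at 4.42, 3.52 and 3.64 FPKM at 8.5 dpp, 5.47 and 5.41 at 14.5 dpp, 12.5, 11.9 and 12.2 at 24.5 dpp, 35.7, 50.4 and 29.5 at 30.5 dpp, 108, 95.6 and 98.4 at 36.5 dpp, and 89.3, 126 and 140 at 53.5 dpp. In culture they were at 2.26, 2.75 and 3.14 FPKM at D6, 2.86, 3.50 and 3.86 at D16, 3.78, 3.13 and 3.39 at D22, and 3.61, 4.23 and 3.56 at D28. All 12 cultured libraries were below both 14.5 dpp libraries. Spaca1 was 2.25 times higher at 24.5 than at 14.5 dpp (adjusted p = 0.00211), 3.15 times higher at 30.5 than at 24.5 dpp (adjusted p = 0.000841) and 2.61 times higher at 36.5 than at 30.5 dpp (adjusted p = 0.017).

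Zpbp (Entrez Gene 498415) encodes a matrix protein of the acrosome that binds the zona pellucida. The testes were at 0.985, 0.914 and 0.959 FPKM at 8.5 dpp, 1.57 and 1.38 at 14.5 dpp, 23.4, 27.9 and 15.6 at 24.5 dpp, 61.0, 75.9 and 69.9 at 30.5 dpp, 86.8, 93.7 and 96.4 at 36.5 dpp, and 78.4, 85.0 and 108 at 53.5 dpp. The 12 cultured libraries ranged from 0.907 to 2.11 FPKM, below all libraries from 24.5 dpp on. Zpbp was 15.1 times higher at 24.5 than at 14.5 dpp (log2 difference 3.20 ± 0.25, adjusted p = 0.000529) and 3.09 times higher at 30.5 than at 24.5 dpp (1.62 ± 0.22, adjusted p = 0.000945). Its group means over the 10 groups, as log2(FPKM + 1), had a Pearson r of 0.999 with those of Acr, as a description of points that share libraries.

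Acrv1 (Entrez Gene 60353) and Spaca3 (Entrez Gene 287557) encode, in that order, an acrosomal vesicle protein also known as SP-10 and a lysozyme-like protein of the acrosome. Acrv1 libraries were at 0, 0.227 and 0.0679 FPKM at 24.5 dpp, 41.7, 82.1 and 65.3 at 30.5 dpp, 163, 161 and 172 at 36.5 dpp, and 142, 177 and 221 at 53.5 dpp. Spaca3 libraries were at 0, 0 and 0.199 FPKM at 24.5 dpp, 11.3, 37.8 and 27.8 at 30.5 dpp, 53.8, 55.0 and 38.1 at 36.5 dpp, and 43.0, 47.2 and 78.8 at 53.5 dpp. Both genes were at or near 0 up to 24.5 dpp and well above it in every later testis. Of the 12 cultured libraries, 11 were listed at 0 for Acrv1, with 0.109 FPKM in 1 D22 library, and 12 were listed at 0 for Spaca3. On the log2(FPKM + 1) scale Acrv1 rose by 5.82 ± 0.24 from 24.5 to 30.5 dpp and Spaca3 by 4.50 ± 0.39, and both were tested at this step only because of their 30.5 dpp median and so had to differ. From 30.5 to 36.5 dpp Acrv1 was 2.62 times higher (adjusted p = 0.017) and Spaca3 1.91 times higher, which was not called (adjusted p = 0.0875).

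Spam1 (Entrez Gene 117037) encodes PH-20, the hyaluronidase anchored to the sperm surface and inner acrosomal membrane. It was at 0.0913, 0.178 and 0.125 FPKM at 24.5 dpp, 62.9, 116 and 101 at 30.5 dpp, 223, 191 and 226 at 36.5 dpp, and 159, 197 and 289 at 53.5 dpp. All 8.5 dpp, 14.5 dpp and cultured libraries were at or below 0.177 FPKM, with 5 of the 12 cultured libraries listed at 0. Spam1 rose by 6.33 ± 0.22 on the log2(FPKM + 1) scale from 24.5 to 30.5 dpp, where its 30.5 dpp median alone brought it into the test and it had to differ, and was 2.29 times higher at 36.5 than at 30.5 dpp (adjusted p = 0.0171). In the RefSeq gene order it lies among its paralogs, after Hyal6 and Hyal4 and before Hyal5, and how reads were shared out among these related genes is not known. Hyal6 was already at 10.8, 14.7 and 7.96 FPKM at 24.5 dpp and at 64.0, 81.6 and 77.4 at 30.5 dpp. Hyal5 was at 0, 0.0533 and 0.0539 FPKM at 24.5 dpp and between 19.3 and 38.8 at 30.5 dpp. Hyal6 and Hyal5 thus differed at 24.5 dpp, and Hyal5 was near 0 there as Spam1 was, while Hyal4 was at most 0.281 FPKM in any library.

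Izumo1 (Entrez Gene 499152) encodes the membrane protein of sperm that binds its receptor on the egg before the membranes fuse. It was at 0.358, 0.183 and 0.199 FPKM at 24.5 dpp, 12.7, 27.0 and 20.2 at 30.5 dpp, 55.9, 47.0 and 49.9 at 36.5 dpp, and 41.5, 65.5 and 71.7 at 53.5 dpp. Younger testes were at 0.512 FPKM or lower and cultured libraries at 0.349 or lower, 4 of these 12 being listed at 0. Izumo1 rose by 4.01 ± 0.25 on the log2(FPKM + 1) scale from 24.5 to 30.5 dpp, where it too had to differ, having passed the filter at 30.5 dpp alone, and was 2.55 times higher at 36.5 than at 30.5 dpp (adjusted p = 0.0171).

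Adam2 (Entrez Gene 56806) encodes fertilin beta, a sperm surface protein of the ADAM family. Its libraries were listed at 0 at 8.5 and 14.5 dpp and in all 12 cultured libraries, and were at 17.1, 25.4 and 2.07 FPKM at 24.5 dpp, 60.2, 80.2 and 51.3 at 30.5 dpp, 95.1, 78.3 and 92.8 at 36.5 dpp, and 64.1, 45.1 and 65.2 at 53.5 dpp. Replicate 3 at 24.5 dpp was the lowest of its group by far, and the 53.5 dpp libraries were below all 36.5 dpp libraries. Adam2 was called higher at 24.5 than at 14.5 dpp (adjusted p = 0.018), a step at which it passed the filter at 24.5 dpp alone and could only be higher, and this call was lost without either 14.5 dpp library or without replicate 1 at 24.5 dpp, with adjusted p from 1.09e-06 to 0.109 over all alternatives. It was 4.30 times higher at 30.5 than at 24.5 dpp (adjusted p = 0.0192), a call lost without replicate 1 or replicate 2 at 30.5 dpp and with an intensity trend and robust prior, with adjusted p from 1.61e-05 to 0.0628 over the alternatives. At 53.5 dpp its mean was 0.655 times that at 36.5 dpp, within the ratio of 2 and so not called (log2 difference -0.62 ± 0.16, adjusted p = 0.0228).

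Tex101 (Entrez Gene 207113) encodes a glycoprotein anchored to the germ cell surface that in mice is needed for the processing of ADAM3 on sperm. Its libraries were at 7.13, 6.76 and 6.64 FPKM at 8.5 dpp, 28.3 and 78.7 at 14.5 dpp, 326, 360.4 and 484 at 24.5 dpp, 116, 123 and 163 at 30.5 dpp, 83.0, 81.9 and 70.6 at 36.5 dpp, and 58.2, 117 and 60.8 at 53.5 dpp. In culture they were at 28.6, 20.6 and 21.5 FPKM at D6, 27.4, 49.6 and 28.9 at D16, 79.6, 57.2 and 52.0 at D22, and 29.5, 26.4 and 30.7 at D28. The 24.5 dpp libraries were above all others, the cultured libraries were all above the 8.5 dpp libraries, and they overlapped the wide range of the 14.5 dpp libraries. Tex101 was 7.81 times higher at 14.5 than at 8.5 dpp (log2 difference 2.62 ± 0.41, adjusted p = 0.00785) and 7.29 times higher at 24.5 than at 14.5 dpp (3.00 ± 0.43, adjusted p = 0.00317). It fell by 1.53 ± 0.20 on the log2 scale from 24.5 to 30.5 dpp (adjusted p = 0.000913), while the other 9 genes rose. With the libraries scaled to 1 median, this difference was -1.04 and the ratio of medians was below 2, so the call was lost (adjusted p from 6.66e-05 to 0.00438 over the alternatives).

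**Figure D2:**
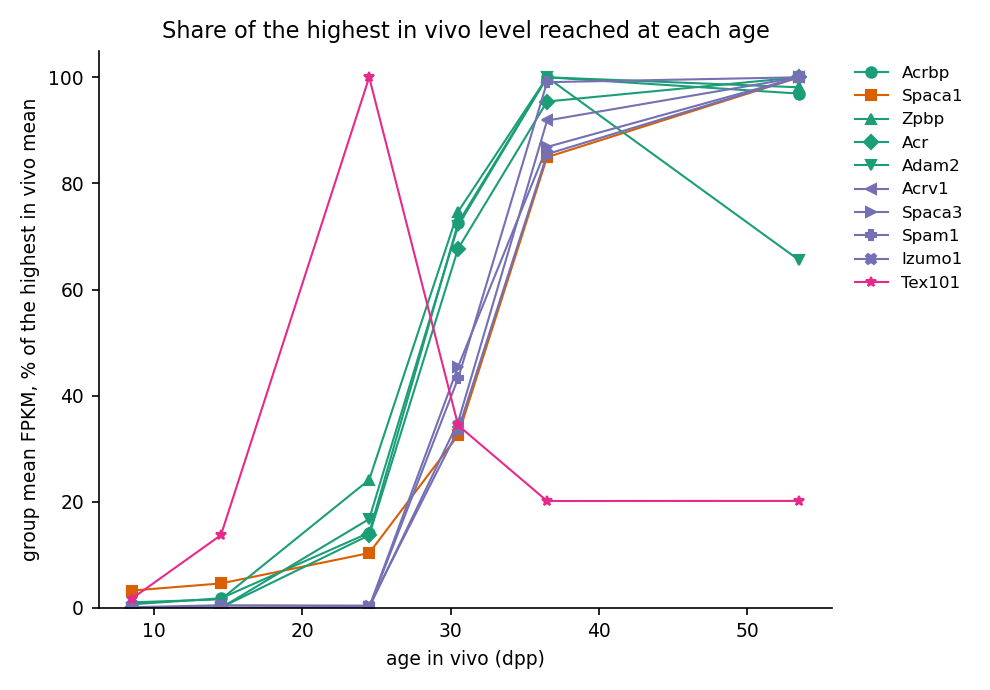
Mean FPKM of each gene at each age in vivo, as a percent of its highest in vivo group mean (3 libraries a point, 2 at 14.5 dpp), against age in dpp. At 24.5 dpp Zpbp was at 24.1% and Acrv1, Spam1, Spaca3 and Izumo1 were below 1% of their highest mean, and Tex101 was at its highest.

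The share of the highest in vivo mean reached at each age set the genes apart. At 24.5 dpp Zpbp was at 24.1% of its highest mean, Adam2 at 16.7%, Acrbp at 14.1%, Acr at 13.7% and Spaca1 at 10.3%. Izumo1 was at 0.415%, Spaca3 at 0.118%, Spam1 at 0.0610% and Acrv1 at 0.0546% at that age. At 30.5 dpp Zpbp, Acrbp, Adam2 and Acr were at 74.7%, 72.5%, 72.0% and 67.7%, and Spaca3, Spam1, Acrv1, Izumo1 and Spaca1 at 45.5%, 43.3%, 35.1%, 33.5% and 32.5%. The highest mean was at 36.5 dpp for Acrbp, Zpbp and Adam2 and at 53.5 dpp for Acr, Acrv1, Spaca1, Spaca3, Spam1 and Izumo1, although the 36.5 and 53.5 dpp libraries overlapped for all of these but Adam2.

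By mean FPKM the order at 36.5 dpp was Acrbp, Spam1, Acr, Acrv1, Spaca1, Zpbp, Adam2, Tex101, Izumo1 and Spaca3. Libraries of neighbours in this order overlapped except between Acrbp and Spam1, between Spam1 and Acr, between Acrv1 and Spaca1, and between Tex101 and Izumo1. At 24.5 dpp the order was Tex101, Acrbp, Acr, Zpbp, Adam2 and Spaca1, with the other 4 genes below 1 FPKM, and among these 6 the libraries of Tex101 and of Acrbp did not overlap those of the gene after them. At D28 it was Tex101, at 28.9 ± 2.18 FPKM, then Acrbp and Spaca1, which overlapped, then Zpbp at 1.68 ± 0.591.

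Tests of each step in vivo place the members against all genes. A gene was tested when its median was at least 0.5 FPKM in 1 of the groups compared, so a member that passed through its high group alone had to differ, and counts of members are a description. Between 8.5 and 14.5 dpp 4 of the 10 genes passed this filter and 2, Acrbp and Tex101, were called higher, against 8.83% of the 11253 genes tested. Spaca1 and Zpbp did not overlap between these ages either, with means 1.41 and 1.55 times higher and adjusted p of 0.0367 and 0.0325, below the ratio of 2. Between 14.5 and 24.5 dpp 6 passed and 6 were called higher, 2 of which, Acr and Adam2, passed at 24.5 dpp alone, against 14.6% of 11589 genes. Without 14.5 dpp replicate 1 the genes called in either direction at this step went from 4131 to 2585. Between 24.5 and 30.5 dpp 10 passed, 4 of them, Acrv1, Spaca3, Spam1 and Izumo1, at 30.5 dpp alone, and 9 were called higher, against 13.5% of 11492 genes, and 1, Tex101, lower, against 25.5%. Between 30.5 and 36.5 dpp 10 passed and 4, Acrv1, Spaca1, Spam1 and Izumo1, were called higher, against 6.33% of 11227 genes. Between 36.5 and 53.5 dpp limma called 0 of the 10 members, against 7.86% of 11033 genes called in either direction. Of the members 1, Adam2, had an unadjusted p under 0.05, as had 6275 of the 11033 genes. Neighbouring steps share the libraries of the age between them.

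The calls between 30.5 and 36.5 dpp depended on which libraries were used. Leaving out replicate 3 at 30.5 dpp, or replicate 1, 2 or 3 at 36.5 dpp, brought the members called higher from 4 to 0 and the genes called among all tested from 846 to 8, 20, 17 and 60. Over all 6 omissions the members called higher ranged from 0 to 5 and the genes called from 8 to 1192. The values themselves moved less, from 1.16 to 1.68 for Acrv1 and from 1.18 to 1.65 for Spaca1 on the log2 scale over the alternatives, with adjusted p from 4.45e-07 to 0.069 and from 5e-07 to 0.069. Spam1 also lost its call with quantile normalization, at a ratio of medians below 2, and Spaca3 was called without replicate 2 at 30.5 dpp (log2 difference 1.39, adjusted p from 0.00281 to 0.201 over the alternatives). Among the 30.5 dpp libraries replicate 1 was the lowest for 8 of the 10 genes and replicate 2 the highest for 9. Summed FPKM of 10 marker genes of elongating spermatids, of which Odf2 had the highest mean at this age, was 858 in replicate 1, 2653 in replicate 2 and 1273 in replicate 3, with 0 of the markers at 0. The part of this difference in the result was not tested.

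**Figure D3:**
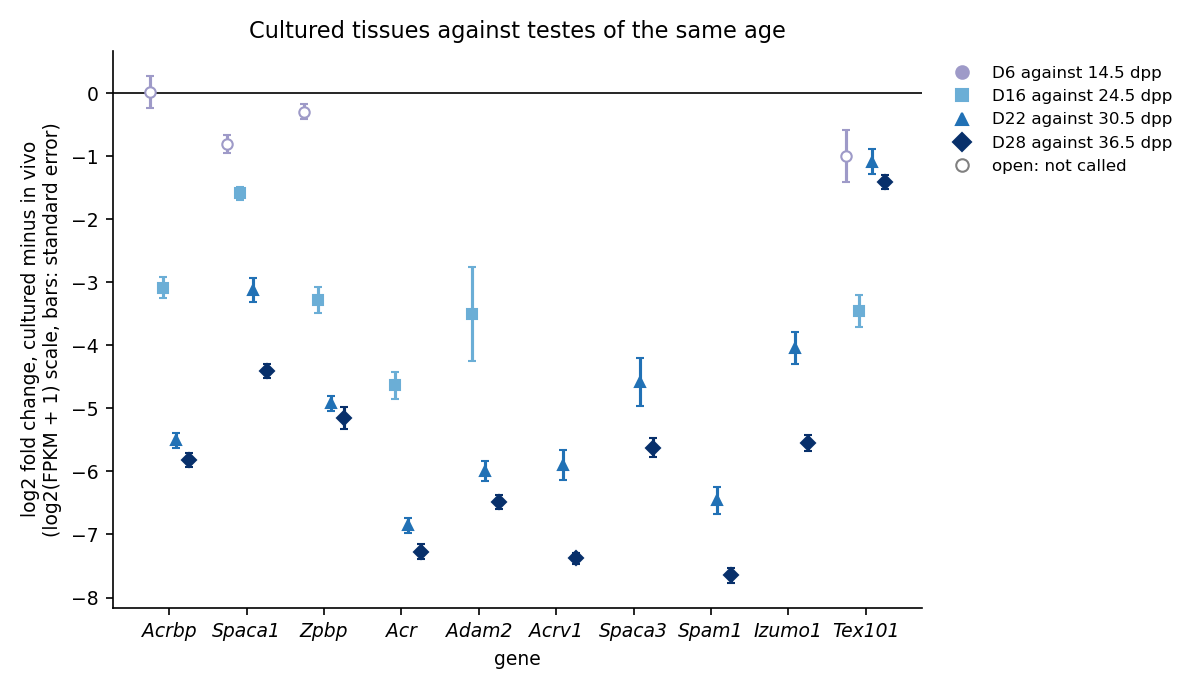
Difference in log2(FPKM + 1) between cultured tissues and testes of the same nominal age for each gene, with its standard error (limma). Filled symbols were called and open symbols were not. At D22 and D28 all 10 genes were called lower, and Tex101 had the smallest difference, -1.09 at D22 and -1.41 at D28.

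Cultured tissues were next compared with testes of the same nominal age, the comparison that asks how far development in vitro keeps pace with that in vivo. At D6 against 14.5 dpp 4 members were tested and limma called 0, against 7.94% of 11309 genes called in either direction. Of the 4 members 1, Spaca1, had an unadjusted p under 0.05, as had 3839 of the 11309 genes. Spaca1 was at 0.499 times its 14.5 dpp mean without overlap (log2 difference -0.80 ± 0.14, adjusted p = 0.0201), short of the ratio of 2 between medians. Without D6 replicate 3 Spaca1 was called lower (-0.88, adjusted p from 0.0015 to 0.0755 over the alternatives), and without 14.5 dpp replicate 1, or with all 10 groups in 1 fit, Tex101 was called lower (-1.71 without that replicate, against -0.99 ± 0.41 with it, adjusted p from 0.0241 to 0.477 over the alternatives). Acrbp differed from 14.5 dpp by 0.02 ± 0.25 and Zpbp by -0.29 ± 0.12 on the log2 scale. The number of genes called among all tested was 898, and 406, 564 or 510 without D6 replicate 1, 2 or 3.

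At the later times all members tested were called lower in culture. At D16 against 24.5 dpp these were 6 of 6 tested, against 18.3% of 11658 genes called lower. Of these 6, Acr and Adam2 passed the filter at 24.5 dpp alone and so had to be lower. Acrbp was at 4.09 ± 0.316 FPKM at D16 and 42.8 ± 9.18 at 24.5 dpp, 10.5 times higher in vivo (log2 difference -3.08 ± 0.16, adjusted p = 1.34e-05). Zpbp was 16.6 times higher in vivo (-3.28 ± 0.21, adjusted p = 2.44e-05), Spaca1 3.58 times (-1.59 ± 0.11, adjusted p = 3.13e-05) and Tex101 11.0 times (-3.46 ± 0.26, adjusted p = 4.14e-05). Acr, at or near 0 in culture, differed by -4.63 ± 0.21 on the log2(FPKM + 1) scale, a size that depends on the added 1 and reached -10.6 with an added 0.01. Adam2 was listed at 0 in the 3 D16 libraries.

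At D22 against 30.5 dpp 10 of 10 members were called lower, against 22.9% of 12118 genes, and at D28 against 36.5 dpp 10 of 10, against 23.6% of 12210 genes. In both comparisons 6 of the 10 passed the filter through the testes alone, and so had to differ. Zpbp was 52.6 times higher at 30.5 dpp than at D22 and 55.1 times higher at 36.5 dpp than at D28. Spaca1 was 11.2 and 26.5 times higher in vivo in these comparisons (log2 differences -3.12 ± 0.19 and -4.40 ± 0.11). Acrbp was 57.3 and 69.0 times higher (-5.51 ± 0.11 and -5.82 ± 0.11). Spaca3 and Adam2 at D22, and Acrv1, Spaca3 and Adam2 at D28, were listed at 0 in all 3 libraries. Acr, Spam1 and Izumo1 at D28 were at 0.126 ± 0.138, 0.0703 ± 0.0936 and 0.110 ± 0.121 FPKM, against 172 ± 12.8, 213 ± 19.5 and 50.9 ± 4.56 at 36.5 dpp. Tex101 was 2.13 times higher at 30.5 dpp than at D22 (-1.09 ± 0.20, adjusted p = 0.00147) and 2.72 times higher at 36.5 dpp than at D28 (-1.41 ± 0.11, adjusted p = 1.28e-05). Without D22 replicate 2 or replicate 3 the first of these was not called, its ratio of medians being below 2 (log2 differences of means -1.03 and -0.96, adjusted p from 0.000229 to 0.00811 over the alternatives).

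The change during culture was tested against the change in vivo over the same nominal interval, as 36.5 dpp minus 14.5 dpp against D28 minus D6. Of the 10 members tested 9 had the larger change in vivo, against 25.5% of 12482 genes called in this direction. Acr, Acrv1, Spaca3, Spam1, Izumo1 and Adam2 passed the filter through their 36.5 dpp median alone, so these 6 had to differ. This contrast takes only the ends of the interval. Between them Tex101 had its highest in vivo mean, 390 ± 83.1 FPKM at 24.5 dpp, against 35.3 ± 12.4 at D16. At the ends alone Tex101 was the exception, with a difference of 0.42 ± 0.44 (adjusted p = 0.404). It was called with the libraries scaled to 1 median and without 14.5 dpp replicate 2, where the difference was 1.14, with adjusted p from 0.00184 to 0.755 over the alternatives. From D6 to D28 limma called 0 of the 4 members tested, against 5.69% of 11358 genes called in either direction. Of the 4 members 2, Spaca1 and Zpbp, had an unadjusted p under 0.05, as had 4181 of the 11358 genes. Spaca1 went from 2.72 ± 0.442 FPKM at D6 to 3.80 ± 0.374 at D28 without overlap (log2 difference 0.37 ± 0.12, adjusted p = 0.0401), a ratio of 1.40.

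Against 14.5 dpp, the comparison the study made, 4 members were tested and limma called 0 at D16, D22 and D28. Of all 11517 genes 13.0%, 13.8% and 15.3% were called in either direction. An unadjusted p under 0.05 was found for 2, 2 and 1 members, and for 5118, 5369 and 5713 of all genes. These 3 comparisons share the 14.5 dpp libraries. Spaca1 was lower without overlap each time, by -0.55, -0.54 and -0.43 on the log2 scale (SE 0.12 each, adjusted p = 0.00653, 0.00655 and 0.0174), at 1.60, 1.59 and 1.43 times below the 14.5 dpp mean, so below the ratio of 2. Acrbp was at -0.33, -0.40 and -0.25 (SE 0.14 each, adjusted p = 0.095, 0.0443 and 0.174), and Zpbp at -0.08, -0.10 and 0.09. Tex101 was at -0.46, 0.38 and -0.70 (SE 0.39 each, adjusted p = 0.39, 0.473 and 0.178), and its call depended on which 14.5 dpp library was used. Without replicate 1, at 28.3 FPKM, it was called lower at D16 (-1.19, adjusted p from 0.0284 to 0.635 over the alternatives) and at D28 (-1.42, from 0.0119 to 0.96), and without replicate 2, at 78.7 FPKM, it was called higher at D22 (1.10, from 0.0363 to 0.752).

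Against 8.5 dpp, the age at which the explants were taken, Acrbp and Tex101 had risen in culture. Of 4 members tested, 2 were called higher at D6, at D16 and at D28 and 1 at D22, against 9.9%, 12.4%, 13.6% and 13.6% of 11539 genes called higher. These comparisons share the 8.5 dpp libraries. Tex101 was 3.44, 5.16, 9.19 and 4.22 times higher (log2 differences 1.63, 2.16, 3.00 and 1.93, SE 0.21 each, adjusted p = 3.23e-05, 1.83e-06, 7.68e-08 and 4.21e-06). Acrbp was 2.78, 2.02, 1.89 and 2.16 times higher (1.10, 0.75, 0.68 and 0.83, SE 0.16 each, adjusted p = 9.23e-05, 0.00125, 0.0025 and 0.000556), with the D22 value below the ratio of 2. Close to that ratio its calls changed with single libraries. The D16 call was lost without 8.5 dpp replicate 1 or 3 or D16 replicate 2, with quantile normalization, with median scaling and with the ratio taken on the log2 scale, the D28 call was lost with the ratio on the log2 scale, and the D22 call was gained without 8.5 dpp replicate 2 or D22 replicate 3. Zpbp at D28 was 1.76 times its 8.5 dpp mean (0.43 ± 0.14, adjusted p = 0.018) and was called without 8.5 dpp replicate 1 or 3 or without D28 replicate 2 (adjusted p from 0.000215 to 0.0968 over the alternatives). Spaca1 was not called at any time, with differences of -0.39, -0.14, -0.13 and -0.02. All its D6 libraries were below all 8.5 dpp libraries, with an 8.5 dpp mean 1.42 times higher (adjusted p = 0.014), below the ratio of 2.

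Other genes of the acrosome, the sperm surface and gamete fusion were listed by function. Of these, 26 of 30 genes of acrosome biogenesis and membranes, 18 of 20 acrosomal enzymes and binding proteins, 5 of 13 gamete fusion genes and 16 of 25 ADAM proteins and factors of their maturation were in the table. Between 14.5 and 24.5 dpp 7 of 19 biogenesis genes tested were called higher and 1 lower, and 7 of 9 enzymes and binding proteins higher and 1 lower, against 14.6% of 11589 genes higher and 21.1% lower. The genes called lower were Spaca6 and Lyzl4, and with 1 library left out 0 to 1 gene of each of these lists was called lower. The filter acts on these lists as on the 10 genes, so their counts are a description. Dkkl1, an acrosomal protein, went from 5.29 ± 4.28 FPKM (n = 2) to 273 ± 55.5 (n = 3). Spesp1, of the equatorial segment, went from 3.00 ± 0.962 to 205 ± 48.8, and Crisp2, a cysteine-rich protein of the acrosome, from 1.20 ± 0.851 to 282 ± 115. In the ADAM list 5 of 12 were called higher, among them Clgn, a germ cell chaperone, from 2.00 ± 0.738 to 144 ± 50.4 FPKM, and Adam3a, which was listed at 0 at 14.5 dpp and at 40.9 ± 23.1 FPKM at 24.5 dpp. Of 3 gamete fusion genes tested 0 were called higher and 1 lower, the tetraspanin Cd9. With 1 library left out 0 to 2 genes were called lower in this list, and 0 to 2 in the ADAM list. Among genes that passed the filter at both ages 6 of 17, 5 of 6, 0 of 3 and 1 of 6 were called higher in the 4 lists.

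Between 24.5 and 30.5 dpp 14 of 24 biogenesis genes, 14 of 16 enzymes and binding proteins, 3 of 5 gamete fusion genes and 10 of 15 ADAM genes were called higher, with 0, 0, 1 and 2 called lower, against 13.5% of 11492 genes higher and 25.5% lower. Spesp1 went from 205 ± 48.8 to 859 ± 109 FPKM, Dkkl1 from 273 ± 55.5 to 636 ± 18.7, Crisp2 from 282 ± 115 to 928 ± 131, Arsa, arylsulfatase A, from 25.2 ± 4.19 to 110.3 ± 6.58 and Adam3a from 40.9 ± 23.1 to 235 ± 23.8. The gamete fusion genes called higher were Llcfc1, from 0.136 ± 0.129 to 55.0 ± 16.7 FPKM, Tmem81, from 2.33 ± 0.577 to 30.2 ± 9.39, and Tmem95, from 0.0210 ± 0.0364 to 7.53 ± 3.33, and those called lower in any list were Cd9, Tpst2 and Pgap1. With 1 library left out the counts called higher were 14 to 16, 13 to 15, 3 and 10 to 11, and at the step before 6 to 7, 6 to 7, 0 and 5 to 6. Of genes above the filter at both ages 8 of 18, 6 of 8, 1 of 3 and 6 of 9 were called higher, the others having passed at 1 age alone. Between 30.5 and 36.5 dpp 10 of 24, 9 of 16, 3 of 5 and 5 of 14 were called higher and 0 lower, against 6.33% of 11227 genes higher, Actl7b, an actin-like protein, going from 296 ± 75.9 to 552 ± 48.3 FPKM, Adam1a from 52.8 ± 15.3 to 118 ± 12.6, Galntl5 from 38.8 ± 14.3 to 129 ± 6.86 FPKM and Llcfc1 from 55.0 ± 16.7 to 167 ± 9.37. Without replicate 3 at 30.5 dpp, or replicate 1 or 2 at 36.5 dpp, 0 genes of the 4 lists were called at this step, and without replicate 3 at 36.5 dpp 1 was, in the ADAM list.

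Between 36.5 and 53.5 dpp, where 0 members were called, 2 of 24 biogenesis genes, 2 of 17 enzymes and binding proteins, 0 of 5 gamete fusion genes and 2 of 14 ADAM genes were called higher and 0 lower, against 2.88% of 11033 genes higher. With 1 library left out these counts were 2 to 4, 2, 0 and 0 to 3. Cabs1, a calcium-binding protein of spermatids, went from 197 ± 28.0 to 867 ± 93.0 FPKM (log2 difference 2.14 ± 0.14, adjusted p = 0.000491), and Actl9 from 137 ± 26.3 to 354 ± 44.3 FPKM. Prss37, a serine protease homolog, went from 44.5 ± 8.21 to 111 ± 38.2 FPKM. Calr3, a germ cell calreticulin, went from 63.7 ± 20.5 to 124 ± 17.1 FPKM, and Adam4 from 34.9 ± 5.30 to 70.1 ± 11.8. Cd46, which codes for a protein of the inner acrosomal membrane, was listed at 0 in the 3 libraries of 36.5 dpp and was at 6.96 ± 1.51 FPKM at 53.5 dpp, the only age of the pair at which it passed the filter. A listed 0 may not be an absence, since 248 of the 17322 genes had 0 in 1 library and at least 5 FPKM in another of the same group, with 0 of the 10 members among them.

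The same lists were compared between culture and testes of the same nominal age. At D6 against 14.5 dpp 1 of 18 biogenesis genes tested, Spaca5, was called lower, and 0 of 7 enzymes and binding proteins, 0 of 3 gamete fusion genes and 0 of 7 ADAM genes were called in either direction, against 7.94% of 11309 genes. Spaca5 was at 0 at D6 and passed the filter at 14.5 dpp alone, and its call was lost without D6 replicate 1, with the ratio on the log2 scale, with all 10 groups in 1 fit and with the replicate block. With 1 library left out 0 to 3 biogenesis genes were called lower and 0 to 1 higher. At D16 against 24.5 dpp 11 of 18 biogenesis genes were called lower and 1 higher, 6 of 9 enzymes and binding proteins lower and 1 higher, 0 of 3 gamete fusion genes lower and 2 higher, and 5 of 13 ADAM genes lower and 2 higher, against 18.3% of 11658 genes lower and 25.3% higher, and with 1 library left out 9 to 11, 6 to 8, 0 and 5 to 6 were lower. Of the genes that passed in both groups 8 of 15, 3 of 5, 0 of 3 and 1 of 6 were lower. At D22 against 30.5 dpp 19 of 25, 15 of 16, 3 of 5 and 11 of 14 were called lower, with 0, 1, 2 and 2 called higher, against 22.9% of 12118 genes lower and 42.1% higher, and with 1 library left out 18 to 19, 15, 3 and 10 to 11 were lower. Among those that passed in both groups it was 11 of 16, 6 of 7, 1 of 3 and 4 of 6. Spesp1 was at 1.99 ± 0.280 FPKM at D22 and 859 ± 109 at 30.5 dpp, and Crisp2 at 0.652 ± 0.120 and 928 ± 131. At D28 against 36.5 dpp 19 of 24, 15 of 16, 3 of 5 and 12 of 15 were called lower, with 1, 1, 2 and 2 called higher, against 23.6% of 12210 genes lower and 46.7% higher, and with 1 library left out 19, 15, 3 and 11 to 12 were lower. Among those that passed in both groups these were 10 of 15, 4 of 5, 1 of 3 and 4 of 6. The genes called higher at D28 were the tetraspanins Cd81, at 159.9 ± 15.7 against 28.6 ± 5.59 FPKM, and Cd9, at 21.3 ± 4.03 against 2.91 ± 0.195, the ectonucleotidase Nt5e, at 27.9 ± 4.97 against 5.89 ± 1.31, Smap2, a factor of vesicle transport, the tyrosylprotein sulfotransferase Tpst2 and the enzyme of GPI anchors Pgap1. In vivo Cd81 fell from a mean of 183 FPKM at 8.5 dpp to 24.3 at 53.5 dpp. Cd9 fell from 37.4 to 1.67 FPKM between these ages.

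Against 8.5 dpp 2, 4, 4 and 3 of 18 biogenesis genes tested were called higher at D6, D16, D22 and D28, 1, 1, 1 and 2 of 7 enzymes and binding proteins, 1 of 3 gamete fusion genes each time, and 2, 3, 4 and 4 of 8 ADAM genes, against 9.9%, 12.4%, 13.6% and 13.6% of 11539 genes. With 1 library left out these were 1 to 4, 3 to 5, 3 to 5 and 2 to 5, then 0 to 1, 0 to 1, 1 to 2 and 1 to 2, then 1 each time, and 1 to 2, 2 to 4, 2 to 4 and 4. Called lower was 1 gene, the lysozyme-like Lyzl4, at D16, D22 and D28, against 9.72%, 9.92% and 10.5% of all genes, and 0 genes at D6. With 1 library left out 1 to 2, 0 to 1 and 1 of the enzymes and binding proteins were called lower at D16, D22 and D28. For gamete fusion genes it was 0 to 1 at D6 and at D22. The genes called higher at every culture time were Dkkl1, Pcsk4, Tmem81, Clgn and Ace. Clgn, and Fam209, Eqtn and Adam7 among those called at some times, were below the filter at 8.5 dpp and could only be higher. Tmem81, of the gamete fusion list, was at 1.28 ± 0.123 FPKM at 8.5 dpp, 2.73 ± 0.382 at 14.5 dpp, 2.33 ± 0.577 at 24.5 dpp, 4.46 ± 0.170 at D6, 7.07 ± 0.499 at D16, then 7.39 ± 1.32 at D22 and 6.94 ± 0.583 by D28, and was called above 14.5 dpp at each of the last 3 times and above 24.5 dpp at D16. At 30.5 and 36.5 dpp it was at 30.2 ± 9.39 and 69.6 ± 3.29 FPKM. Dkkl1 was at 0.979 ± 0.335 FPKM at 8.5 dpp and 5.61 ± 0.183, 4.24 ± 0.694, 5.89 ± 1.97 and 5.44 ± 1.03 at D6, D16, D22 and D28. Clgn was at 0.0896 ± 0.0777 FPKM at 8.5 dpp and 1.36 ± 0.259, 1.41 ± 0.369, 2.83 ± 0.570 and 1.81 ± 0.339 in culture. Pcsk4, a proprotein convertase, was at 3.30 ± 0.737 FPKM at 8.5 dpp and 6.48 ± 0.823, 6.98 ± 0.554, 8.02 ± 0.630 and 8.23 ± 1.33 in culture. Ace was at 0.628 ± 0.196 FPKM at 8.5 dpp and 1.49 ± 0.494, 1.49 ± 0.606, 1.39 ± 0.168 and 1.56 ± 0.201 in culture. Its means at 14.5 and 24.5 dpp, 0.744 ± 0.402 and 0.195 ± 0.0784 FPKM, were below all of these culture means. At 30.5 dpp Ace was at 5.30 ± 2.91 FPKM.

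**Figure D4:**
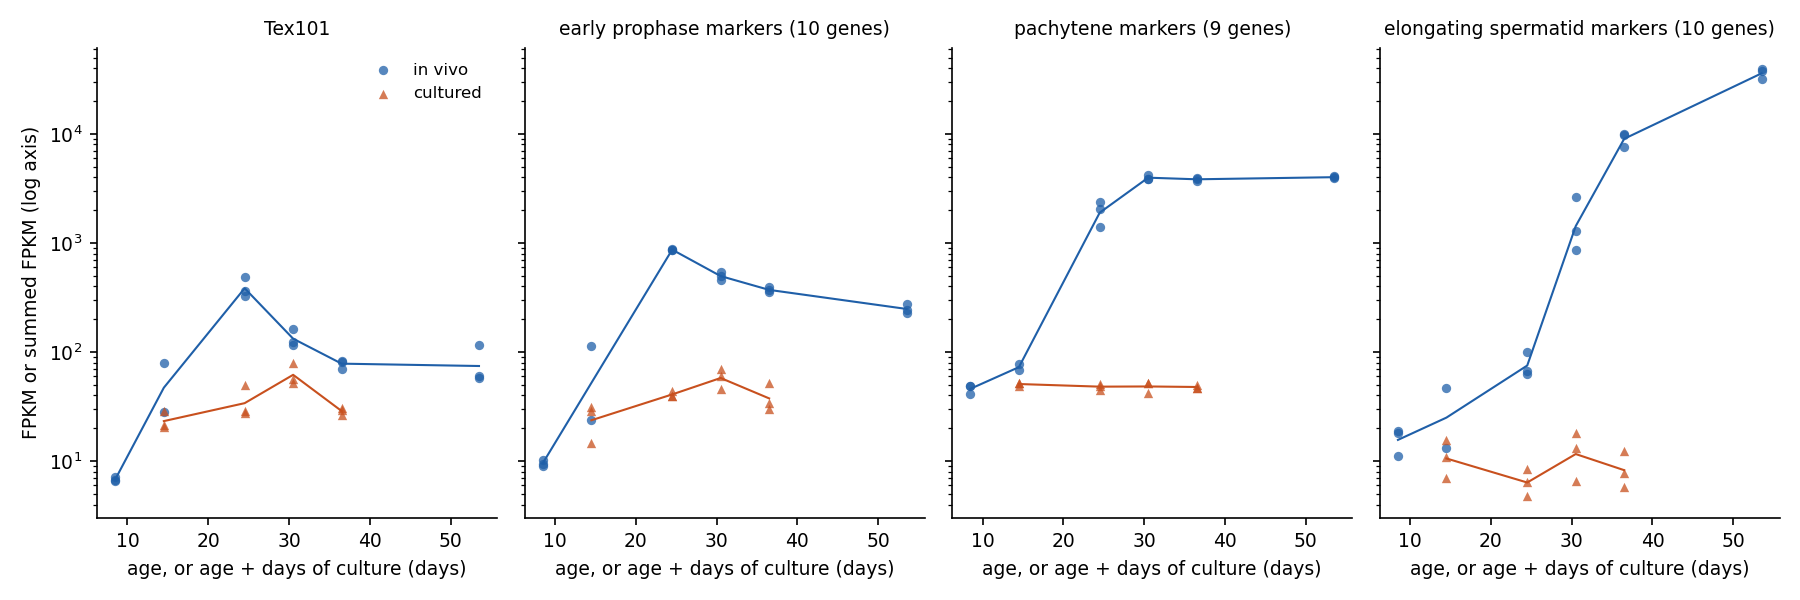
FPKM of Tex101 and summed FPKM of marker genes in each library, on a log axis, against age or age plus days of culture. Circles are testes in vivo, triangles cultured tissues, and lines join geometric means of the groups. Tex101 and the early prophase sum were both highest at 24.5 dpp, whereas the pachytene and elongating spermatid sums stayed high or rose at later ages. Among the pachytene markers only Piwil1 had its highest mean at 24.5 dpp, at 229 FPKM, against 85.0 at 53.5 dpp.

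Marker genes of germ cell stages were summed in each library beside these results. Early prophase spermatocyte markers (10 of 10 genes in the table, Sycp3 the most abundant) were at 9.47, 9.10 and 10.3 FPKM at 8.5 dpp, 24.0 and 113 at 14.5 dpp, 879, 863 and 862 at 24.5 dpp, 536, 461 and 496 at 30.5 dpp, 368, 353 and 394 at 36.5 dpp, and 244, 276 and 228 at 53.5 dpp. In culture their sums were 31.1, 29.1 and 14.7 FPKM at D6, 39.4, 39.4 and 44.0 at D16, 69.5, 60.7 and 45.9 at D22, and 29.9, 51.8 and 34.3 at D28. Like Tex101 they were highest at 24.5 dpp in vivo, and the 14.5 dpp library with more Tex101 had the larger sum. Against 8.5 dpp 5, 9, 10 and 9 of the 10 were called higher at D6, D16, D22 and D28, against 9.9%, 12.4%, 13.6% and 13.6% of all genes. Of these 10, 6 were below the filter at 8.5 dpp and could only be higher, and of the other 4, 3 were called at D6 and 4 at each later time. In comparison with testes of the same nominal age 0, 9, 8 and 9 were called lower, the last 3 against 18.3%, 22.9% and 23.6% of all genes, and Spo11, below the filter at D16 and D22, could only be lower there. Between 24.5 and 30.5 dpp, when Tex101 fell, 4 of the 10, Sycp1, Dmc1, Meiob and Prdm9, were called lower and 1, Rec8, higher, against 25.5% and 13.5% of all genes. Spo11 and Rec8 were listed at 0 in the 3 libraries of 8.5 dpp.

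Pachytene spermatocyte markers (9 of 10 in the table, Hspa2 the most abundant) summed to 67.9 and 77.9 FPKM at 14.5 dpp, 2051, 2352 and 1409 at 24.5 dpp, 3861, 4154 and 3886 at 30.5 dpp and from 3670 to 4073 later. At 24.5 against 14.5 dpp 9 of 9 were called higher, against 14.6% of 11589 genes. Of these 9, 3, Ldhc, Spag6l and Cetn1, passed the filter at 24.5 dpp alone and had to be higher. In the 12 cultured libraries the 9 markers summed to between 42.4 and 51.9 FPKM, and at 8.5 dpp to between 41.0 and 48.9. Most of each sum was Tbpl1, at 27.5 ± 3.14 FPKM at 8.5 dpp, and Hspa2, at 13.6 ± 0.816, while Piwil1 had means of 0.101 at 8.5 dpp, 0.580 at D22 and 0.818 at D28. In culture 9 of 9 were called lower at D16, D22 and D28 than in testes of the same nominal age, against 18.3%, 22.9% and 23.6% of all genes. Of these 9, however, 5, 4 and 4 passed the filter in the testes alone and had to be lower. Ldhc was listed at 0 in every library of D16 and D22, and Spag6l in every library of D6. The 24.5 dpp library with the lowest sum, replicate 3, was also the lowest in its group for Acr, Acrbp, Zpbp and Adam2 and the highest for Tex101, and its 10 Sertoli markers, of which Clu was the most abundant, had the highest sum, 3241 against 2417 and 2301 FPKM.

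Round spermatid markers (9 of 10 in the table, Tssk2 the most abundant over all libraries) summed to 34.4, 37.5 and 24.9 FPKM at 24.5 dpp, 249, 482 and 333 at 30.5 dpp, 1016, 1025 and 820 at 36.5 dpp and 1842, 2025 and 2035 at 53.5 dpp, and to between 4.99 and 7.94 FPKM in culture. Most of the sum in culture was Crem, at means from 4.05 to 6.73 FPKM there and 9.35 at 8.5 dpp, and each of the other 8 had a mean of 0.697 or lower in every culture group. Elongating spermatid markers (10 of 10, Tnp1 the most abundant over all libraries) summed to 67.6, 100.2 and 62.9 FPKM at 24.5 dpp, 858, 2653 and 1273 at 30.5 dpp, 10038, 9684 and 7515 at 36.5 dpp and 37308, 39195 and 31514 at 53.5 dpp, and to between 4.75 and 18.0 FPKM in culture. Most of the sum at 24.5 dpp was Odf2, at a mean of 67.4 FPKM. Odf2 and Tssk6 were the most abundant in culture, at means from 2.97 to 4.17 and from 3.17 to 4.32 FPKM. All 10 elongating markers were called higher at 30.5 than at 24.5 dpp, against 13.5% of 11492 genes. Of these, 4, Prm1, Prm2, Tnp1 and Akap4, passed the filter at 30.5 dpp alone and had to be higher. The same held for Acrv1, Spaca3, Spam1 and Izumo1. Prm1, Prm2 and Tnp1 were listed at 0 in all 3 libraries at 24.5 dpp and in all 3 at D28. Prm1 was also at 0 in all libraries of 8.5 and 14.5 dpp, D6 and D22, and at D16 Prm1, Prm2, Tnp2, Akap4 and Smcp were. Of the round spermatid markers Txndc8 was listed at 0 in every library, and Catsper3 and Sun5 in every library up to 24.5 dpp and in culture, with Spata18 at 0 at 8.5 dpp and D28, Tekt4 at D16 and Gapdhs at D22. Of the elongating markers 9 were still called higher at 53.5 than at 36.5 dpp, against 2.88% of all genes, where 0 of the 10 acrosome genes were. Sertoli markers (10 of 10) summed to 712, 787 and 678 FPKM at 36.5 dpp and to 5262, 4856 and 5835 at D28, with 9 called higher at D28, against 46.7% of all genes. The part of these differences in cell content in the results for the 10 genes was not tested.

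Genes of like pattern were taken from 10025 other genes with a mean of at least 5 FPKM in some group, by Pearson r of group means of log2(FPKM + 1) over the 10 groups. Nearest to Tex101 were Dmc1, the meiotic recombinase, at r = 0.976, Rhox8 at 0.971 and Sepsecs at 0.962. Over the 29 libraries Dmc1 and Rhox8 were again the first and the next, at 0.955 and 0.947. Nearest to Acr were Gykl1, Ccdc24 and Cmtm1, to Zpbp Mdh1b, Ssmem1 and Ccdc24, and to Adam2 Spag16, Morc2b and Armh1. Nearest to Acrbp were Nectin3, Zc2hc1c and Pgp at 0.998, 0.997 and 0.997, and to Spaca1 Cby2, Deup1 and Akap3 at 0.995, 0.995 and 0.995. Acrv1 had Krt88, Spata31 and Adam26a, Spaca3 had Spata31, Krt88 and Ddi1, Spam1 had Fam24a, Saxo4 and Toporsl, and Izumo1 had Cldn34e, Llcfc1 and Phf8l. Among the members, Acrv1 had r above 0.997 with Spaca3, Spam1 and Izumo1, and Tex101 had r from 0.352 to 0.654 with the other 9. Over the 29 libraries 13 of the nearest genes stayed among the nearest 3, and some others ranked far lower. Saxo4 was at rank 179 for Spam1, and Morc2b and Armh1 were at ranks 50 and 133 for Adam2. The points share libraries, and the r values are given without a test.

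The libraries were also compared after scaling each to 1 median over expressed genes, since the deposited values of all genes shifted between groups. The median log2 difference of all genes tested moved from 0.07 to -0.06 for 14.5 against 8.5 dpp, from -0.39 to -0.01 for 30.5 against 24.5 dpp, from -0.22 to -0.02 for 36.5 against 30.5 dpp, from -0.30 to 0.02 for 53.5 against 36.5 dpp, from 0.51 to 0.15 for D22 against 30.5 dpp, from 0.64 to 0.12 for D28 against 36.5 dpp and from -0.63 to -0.12 for the difference between the changes in vivo and in culture. The share of called genes that were higher went from 34.7% to 77.7% for 30.5 against 24.5 dpp, from 36.7% to 87.7% for 53.5 against 36.5 dpp, from 56.2% to 42.6% for 14.5 against 8.5 dpp, from 84.0% to 96.4% for 36.5 against 30.5 dpp, from 64.8% to 53.0% for D22 and from 66.4% to 51.5% for D28. Member calls that changed with this scaling were those of Tex101 between 24.5 and 30.5 dpp and in the difference between the changes, and that of Acrbp at D16 against 8.5 dpp.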

How the data were processed

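RNA was measured by poly(A) sequencing (50 base reads) of 29 rat testis libraries, 12 of them of cultured explants. The authors aligned reads to rn6 with STAR 2.5.2a and deposited gene values in FPKM, normalized to length and mapped reads. Read counts are not in the table and depth in reads is unknown; summed FPKM was 292262 to 380335 and genes above 0 numbered 12520 to 13563 per library. Of the 17322 Entrez Gene identifiers, 17172 were found in a RefSeq table. The 14.5 dpp library at 0 throughout was left out.

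Tests used log2(FPKM + 1) of genes whose group median reached 0.5 FPKM in 1 of the groups of a fit, with limma 3.58.1 (lmFit, eBayes, two-sided moderated tests) in R 4.3.3, adjusted by Benjamini-Hochberg over all genes tested. A call needs group medians 2 times apart or more and an adjusted p no higher than 0.05, or the adjusted p alone for the difference between the changes in vivo and in culture. Pairs in vivo and of the same nominal age had a fit of 2 groups. The comparisons with 14.5 dpp used 1 fit of 4 groups, those with 8.5 dpp 1 fit of 5, and D28 against D6 1 fit of the 4 culture times. Ratios in the text are of group means. The procedure was tested on simulated data.

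Alternatives were an added 0.1 or 0.01, no filter or 1 FPKM, the ratio on the log2 scale, an intensity trend with robust prior, quantile normalization, median scaling, all 10 groups in 1 fit, a replicate block and leaving out each library. The 10 genes and the lists (acrosome biogenesis and membranes, acrosomal enzymes and binding proteins, gamete fusion, ADAM maturation, and markers of early prophase, pachytene, round and elongating germ cells and of Sertoli cells) were chosen with earlier results of these data known. All 10 genes are described singly, but not all are named in each comparison. From a list, up to 4 called genes with the highest mean FPKM are named, and any defining marker at 0. Genes of like pattern are the 3 of highest r. Python 3.11.15, pandas 2.3.3, numpy 2.4.6 and matplotlib 3.10.9 were used. Promoters come from RefSeq on GRCr8.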

Additional observations from a re-analysis of the deposited data

Results flagged for a closer look

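The change from 14.5 to 36.5 dpp and the change from D6 to D28 differed by the test of the difference itself (limma, adjusted over 12482 genes) for 9 of the 10 genes. Among all 12482 genes 9544 were called in either direction, and 25.5% were called in the direction of these 9. On the log2(FPKM + 1) scale the change in vivo was larger by 7.23 for Acr, 5.84 for Acrbp, 7.38 for Acrv1, 3.60 for Spaca1, 5.62 for Spaca3, 4.86 for Zpbp, 7.59 for Spam1, 5.29 for Izumo1 and 6.48 for Adam2. Acr, Acrv1, Spaca3, Spam1, Izumo1 and Adam2, at or near 0 at 14.5 dpp and in culture, were tested only because of their 36.5 dpp median, so these 6 had to differ and their sizes depend on the added 1. Acrbp, Spaca1 and Zpbp passed the filter in all 4 groups. The difference for Tex101 was 0.42 and was not called. Its highest in vivo mean, at 24.5 dpp, lies between the ends that this test compares.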

How the results depend on the processing

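No difference of a member changed direction while called. Under alternatives other than leaving out a library, 1101 member differences kept their side of the threshold, 7 lost and 2 gained a call; with a library left out these counts were 898, 26 and 12. Where leaving out leaves 1 library at 14.5 dpp, it is assumed to vary like the other group. With the ratio on the log2 scale, genes called went from 1769 to 1050.0 for 14.5 against 8.5 dpp, from 867 to 319 for 53.5 against 36.5 dpp, from 898 to 535 for D6 against 14.5 dpp, to 806, 913 and 1039 for D16, D22 and D28 against 14.5 dpp, to 999, 1587, 1794 and 1796 for D6, D16, D22 and D28 against 8.5 dpp, and to 303 for D28 against D6. That ratio left 1 member higher at D16 and 1 at D28 against 8.5 dpp in place of 2, as did quantile normalization and median scaling at D16 (1 each). Quantile normalization gave 527 genes for 53.5 against 36.5 dpp. Median scaling gave 2929 genes and 0 members lower for 30.5 against 24.5 dpp. All 10 groups in 1 fit gave 1 member lower for D6 against 14.5 dpp. The replicate block, which treats equal replicate numbers as related, gave 376 genes for D6 against 14.5 dpp and no change in a member count. Numbers were no sign of pairing, since residuals of equal numbers had a median r of 0.020 (126 pairs) and of others -0.0087 (252 pairs).

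With single libraries left out, genes called ranged from 2585 to 4365 for 24.5 against 14.5 dpp, from 8 to 1192 for 36.5 against 30.5 dpp and from 406 to 944 for D6 against 14.5 dpp. Members called higher ranged from 0 to 5 for 36.5 against 30.5 dpp, from 0 to 1 for D22 against 14.5 dpp, from 1 to 2 for D16 and from 1 to 2 for D22 against 8.5 dpp, and members called lower from 0 to 1 for D6, D16 and D28 against 14.5 dpp. The age of first reaching a level in every library moved at 5 FPKM to 24.5 dpp for Acrbp and Zpbp, 14.5 dpp for Spaca1 and 30.5 dpp for Adam2, and at 0.5 FPKM to 8.5 dpp for Zpbp. Of the 30 genes of like pattern, 13 were among the nearest 3 over 29 libraries. The cause of these changes was not tested. Without read counts, no limit can be put on values listed at 0.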

Other observations

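The 14.5 dpp libraries differed in the summed level of marker genes of a later stage. Elongating spermatid markers summed to 13.3 FPKM in replicate 1 and 47.1 in replicate 2, with Tnp1 listed at 0 in the former and at 13.1 FPKM in the latter. Tnp1 was also above 0 in 1 library at 8.5 dpp (2.85 FPKM), D6 (3.27 FPKM), D16 (0.236 FPKM) and D22 (2.62 FPKM). At 24.5 dpp Tnp1 was listed at 0 in every library, so these values did not follow age. Among the members, Izumo1 (0.512 against 0.0715 FPKM), Acr (0.164 against 0.0469), Acrbp and Tex101 were higher in 14.5 dpp replicate 2. Spam1 (0.0835 against 0.0451 FPKM), Spaca1 and Zpbp were higher in replicate 1, and Acrv1, Spaca3 and Adam2 were at 0 in both. The Izumo1 and Acr values of replicate 2 were their highest in vivo before 24.5 dpp. That of Izumo1 was also above its 24.5 dpp libraries, at 0.358 FPKM or lower.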
